A study of Mus musculus with 10 samples.

Results

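The transcription factors that hold the gene programme of the hepatocyte were followed in liver RNA of mice given the phthalate plasticizer DEHP. The members are the 9 rows of the deposited expression table whose symbol is Hnf4a, Foxa1, Foxa2, Foxa3, Cebpa, Cebpb, Nr1h4, Nr5a2 or Onecut1, out of 16874 rows in all, and every member passed the filter on low values. All 10 livers came from male C57BL/6 mice of 20 to 30 g in which Pparg, which encodes the fat-storage receptor PPAR gamma, was knocked out in the liver only. The 5 CMC libraries came from mice gavaged with 0.5% CMC, read here as the vehicle, and the 5 DEHP libraries from mice gavaged with 2500 mg/kg body weight DEHP. The labels give 12 mice per group, and the Cre driver, the age, the length of treatment and the mouse behind each library were not stated in the labels. The p-values therefore measure the spread between these samples, and with the knockout in both groups nothing can be assigned to it. Values are FPKM, fragments scaled by transcript length and by the mapped fragments of the library.

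HNF4A, the FOXA proteins, C/EBP alpha and HNF6 (encoded by Onecut1) bind the promoters and enhancers of liver genes and of one another, and together keep hepatocytes making plasma proteins, bile acids and lipoproteins. FOXA proteins can open closed chromatin ahead of other factors. FXR (encoded by Nr1h4) and LRH-1 (encoded by Nr5a2) are nuclear receptors that set bile acid synthesis, and C/EBP beta is induced in liver by inflammatory cytokines, fasting hormones and regeneration. The comparison addressed whether lower plasma protein transcripts after DEHP came with lower transcripts of these factors.

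No member was called lower after DEHP, and 1 of the 9, Cebpb, was called higher. Without passing the test, mean FPKM differed by -43% for Onecut1, -32% for Foxa2, -30.3% for Foxa3, -15.3% for Hnf4a, -13.7% for Foxa1, -11.4% for Nr1h4, -1.1% for Nr5a2 and 6.06% for Cebpa. The CMC mean of Onecut1 rests on CMC libraries 1 and 4 (4.3 and 5.17 FPKM). Its median was 1.05 FPKM in CMC and 1.25 FPKM in DEHP libraries, the other direction from the mean. The calls come from limma on log2(FPKM + 0.5) over all 11242 tested genes, at a Benjamini-Hochberg adjusted p below 0.05, and every adjusted p and log2 fold change below (DEHP minus CMC) is from that fit unless another test is named. Over all tested genes 11.5% were called, 9.12% higher and 2.4% lower, so 1 call among 9 members was close to the background share. For no member did the groups stay apart without overlap, against 10.7% of tested genes (8.56% with DEHP higher and 2.14% with DEHP lower). The log2 fold change was negative for 7 members, with a median over the 9 of -0.16, where 40.5% of tested genes were negative and their median was 0.056. These 7 do not count separately, since 4 of them, Foxa1, Foxa2, Foxa3 and Onecut1, were all highest in CMC libraries 1 and 4. In liver tissue, fewer cells of a type and less RNA per cell cannot be told apart.

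Many genes of secreted plasma proteins were lower in the same libraries. Of 86 listed genes 85 were tested, and 48 were called lower and 2 higher, with a median log2 fold change of -0.33. Over all tested genes 2.4% were called lower and 9.12% higher. The lists were chosen with earlier results of these data known, so these counts are a description and no independent test. Called lower were 14 of 19 complement genes, 18 of 33 carrier and protease inhibitor genes, 12 of 21 coagulation genes and 4 of 12 apolipoprotein genes. The 2 called higher were also apolipoprotein genes, Apoa2 (log2 fold change 0.33, adjusted p = 0.0147) and Apoe (0.27, adjusted p = 0.0396). With median-of-ratios scaling no secretory gene was called higher. The median log2 fold change was -0.057 for apolipoproteins, -0.50 for complement, -0.41 for carriers and inhibitors and -0.28 for coagulation. Albumin (Alb), the most abundant carrier in plasma, had 32262, 39569, 31244, 34107 and 28769 FPKM across CMC libraries 1 to 5, against 21406, 23437, 20809, 18590 and 22134 FPKM across DEHP libraries 1 to 5. Every DEHP library was below every CMC library, with a log2 fold change of -0.64 (adjusted p = 0.000445, SE 0.09). C6, a component of the complement pore, fell from 95.5 ± 10.6 to 38.7 ± 12.0 FPKM (SD, n = 5 each, -1.34 in log2, SE 0.17, adjusted p = 0.000372). Trf, the iron carrier transferrin, fell from 7442 ± 877 to 4616 ± 476 FPKM (-0.69 in log2, SE 0.09, adjusted p = 0.000284), although this call was lost with quantile normalization (log2 fold change -0.27, adjusted p = 0.396). F11, a clotting protease, fell by 0.68 on the log2 scale (SE 0.12, adjusted p = 0.00284), and Apom, a lipoprotein component that carries sphingosine phosphate, by 0.57 (adjusted p = 0.000738, SE 0.09). Of the 85 secretory genes 54 had a lower log2 fold change than Hnf4a, and for 11 the 95% interval lay wholly below that of Hnf4a. The 95% intervals of 3 members, Cebpa, Cebpb and Nr5a2, lay above the median of the secretory genes, while those of the other 6 contained it. The fold change plot shows both groups of genes on one axis.

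**Figure D1:**
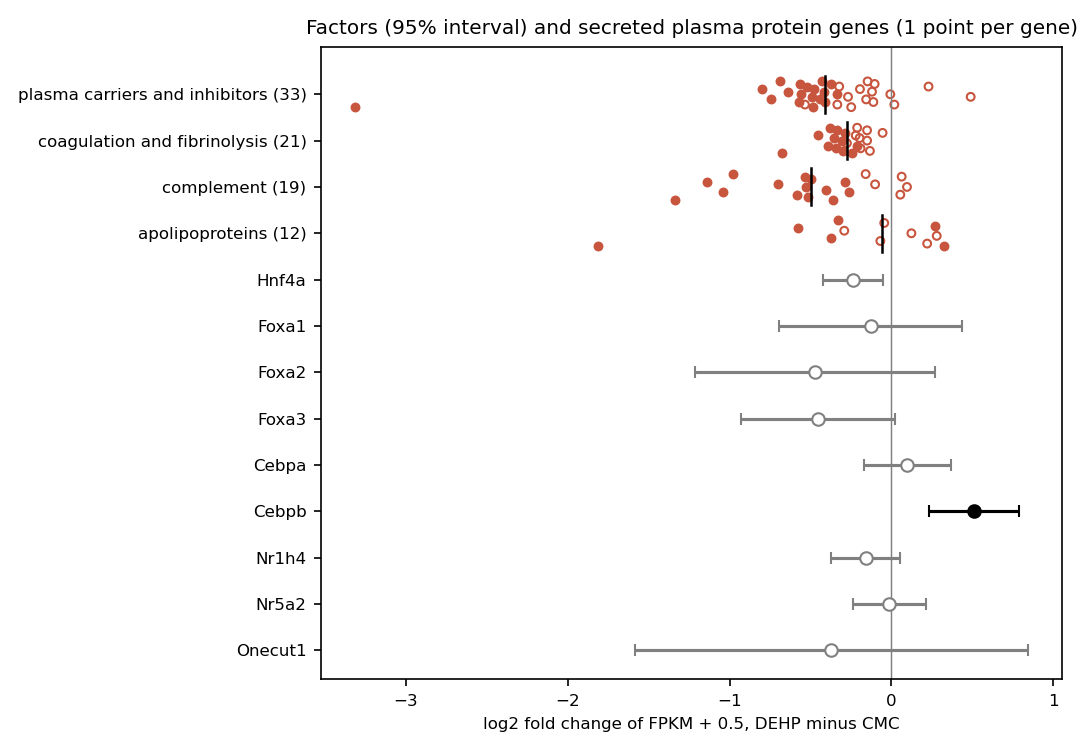
Log2 fold change of FPKM + 0.5, DEHP minus CMC (x axis), for the 9 factors with 95% intervals and for 85 secreted plasma protein genes in 4 lists, 1 point per gene (filled, adjusted p below 0.05 by limma; black bar, median of the list). Cebpb is the only filled factor and lies at 0.51, while 48 secretory genes are filled on the negative side and 2 on the positive side.

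Cebpb encodes a basic leucine zipper factor whose amount changes with signals, and the gene lies on chromosome 2 from 167688915 to 167690432 (GRCm38.p6). It stood at 137, 130, 151, 144 and 118 FPKM across CMC libraries 1 to 5, against 180, 214, 242, 138 and 211 FPKM across DEHP libraries 1 to 5. DEHP library 4 lay inside the CMC range, and the other 4 DEHP libraries lay above it. Mean FPKM rose from 136 ± 12.6 to 197 ± 39.5 (SD over 5 libraries each), a log2 fold change of 0.51 (SE 0.13, 95% interval 0.23 to 0.79, adjusted p = 0.0196). The call was lost with quantile normalization (0.34, adjusted p = 0.109), without DEHP library 3 (adjusted p = 0.0506) and without DEHP library 5 (adjusted p = 0.0516). For Cebpb an exact two-sided permutation over all regroupings of the libraries gave p = 0.0238, and 0.135 adjusted over all tested genes, where that test passed no gene and had a smallest adjusted p of 0.0742, with 2681 genes at an unadjusted p below 0.05.

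Cebpa, the partner that holds the differentiated state of the hepatocyte, had 199, 139, 164, 228 and 197 FPKM in CMC libraries and 208, 223, 162, 200 and 190 FPKM in DEHP libraries. The groups overlapped over nearly their whole range. The log2 fold change was 0.10 (SE 0.12, 95% interval -0.17 to 0.37, adjusted p = 0.688), and it turned to -0.063 with quantile normalization. The ratio of Cebpb to Cebpa, a quantity added after the data were seen, was 0.756 ± 0.161 across CMC and 1.02 ± 0.303 across DEHP livers (SD over 5 libraries each, two-sided exact permutation p = 0.0952, also 0.0952 adjusted over 2 such ratios). The ratio of Cebpb to Hnf4a, added in the same way, was 0.752, 0.769, 1.05, 0.865 and 0.761 in CMC libraries and 1.32, 1.39, 1.69, 0.987 and 1.77 in DEHP libraries. Only DEHP library 4 was within the CMC range, and the mean ratio was 0.839 ± 0.126 against 1.43 ± 0.313 (two-sided exact permutation p = 0.0159, 0.0317 adjusted over the 2 ratios). Both ratios use Cebpb, the member that was called, and are no independent support for that call. The pairs were picked after the data were seen, and the adjustment over the 2 ratios does not cover that choice.

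The 250 bases before the RefSeq start of Cebpb (GRCm38.p6) are shown because it is the member that was called, with Alb beside it as the secretory gene with the most FPKM in CMC livers. In Cebpb the capitals mark TGACG or its reverse complement, the core of cAMP response elements, found 180, 53 and 7 bases before the start. In Alb they mark TTGCNNAA, a core that C/EBP proteins recognise, 94 bases before the start, on either strand.
Cebpb, chr2:167688665-167688914 (+ strand): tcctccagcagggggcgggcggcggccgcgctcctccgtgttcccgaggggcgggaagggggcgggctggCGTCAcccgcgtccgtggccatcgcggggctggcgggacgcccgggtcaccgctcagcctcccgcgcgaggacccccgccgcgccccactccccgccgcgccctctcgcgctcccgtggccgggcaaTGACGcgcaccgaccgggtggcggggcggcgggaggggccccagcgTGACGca
Alb, chr5:90460620-90460869 (+ strand): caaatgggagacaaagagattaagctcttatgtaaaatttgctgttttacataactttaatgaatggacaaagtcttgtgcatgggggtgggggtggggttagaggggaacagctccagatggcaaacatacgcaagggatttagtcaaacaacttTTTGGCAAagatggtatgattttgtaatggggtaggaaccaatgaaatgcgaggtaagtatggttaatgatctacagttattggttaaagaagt
The Cebpb window had a GC content of 81.6% and held none of the other motifs searched, and that of Alb had 39.2%. TGACG occurred, on either strand, before 30.7% of the 9013 tested genes with a RefSeq promoter, so its presence is common.

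TTGCNNAA occurred before 30.4% of 69 secretory genes and before 9.64% of the 9013 tested genes, and among the 39 secretory genes called lower its share was 28.2%. The letters TGACG were chosen after the promoters had been read. Other motifs in the first search were TGTTTAC of FOXA (10.1% of secretory and 2.81% of tested genes), CAAAGTCCA of HNF4 (0% and 0.555%), AATCAATA of HNF6 (2.9% and 0.61%), TTCNNNGAA of STAT (13% and 7.15%), TTGCGCAA, the C/EBP palindrome (0% and 0.311%), TGACGTCA, the whole cAMP response element (1.45% and 2.98%), and TATAAA (15.9% and 8.19%). Among the 39 secretory genes called lower the share was 2.56% for TGTTTAC, near that of all tested genes, and 5.13% for TATAAA. It was 0% for CAAAGTCCA, 5.13% for AATCAATA, 10.3% for TTCNNNGAA, 0% for TTGCGCAA and 2.56% for TGACGTCA. TTGCGCAA is 1 form of TTGCNNAA, and TGACGTCA contains TGACG. A match of letters is no evidence of binding.

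HNF4A is the nuclear receptor on which much of the secretory programme of the adult liver depends, and its gene lies on chromosome 2 from 163506811 to 163572907. Hnf4a had 182, 169, 144, 166 and 156 FPKM across CMC libraries 1 to 5, against 137, 154, 144, 140 and 119 FPKM across DEHP libraries 1 to 5. The 2 highest values were CMC libraries 1 and 2 and the lowest was DEHP library 5, but CMC library 3 lay among the DEHP values, so the groups overlapped. Mean FPKM was 164 ± 14.5 and 139 ± 12.7 (SD over 5 libraries each), a log2 fold change of -0.24 (SE 0.09, 95% interval -0.42 to -0.06, unadjusted p = 0.0144, adjusted p = 0.0923). Whether Hnf4a was called depended on how libraries were scaled, since it was called with median-of-ratios scaling (-0.32, adjusted p = 0.0279) and with quantile normalization (-0.39, adjusted p = 0.0234). Under those scalings the median of all tested genes moved from 0.056 to -0.013 and -0.017, and the calls over all genes moved from 1025 higher and 270 lower to 635 and 453, and to 611 and 546. The size factor of median-of-ratios scaling was itself 0.973 ± 0.0268 in CMC and 1.03 ± 0.0364 in DEHP libraries (two-sided exact permutation p = 0.0397). Hnf4a overlaps Hnf4aos, a non-coding gene that the table also lists, and the strand setting of the counting was not stated in the labels, so reads of the 2 genes may have been mixed.

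**Figure D2:**
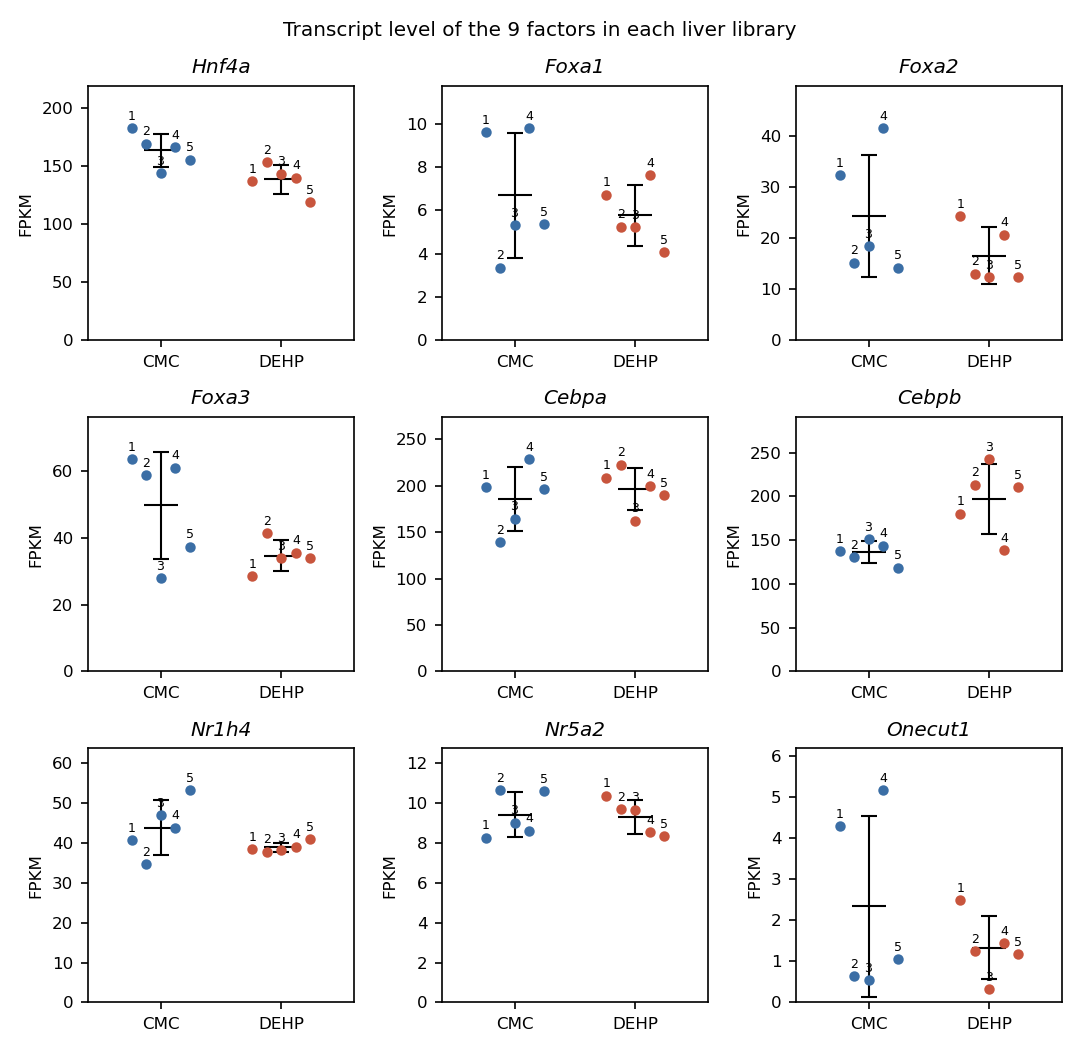
FPKM (y axis, from 0) of each of the 9 factors in the CMC and DEHP libraries, 1 point per library with its library number, and the mean with 1 SD in black (n = 5 per group). Cebpb lies above the CMC range in 4 of 5 DEHP libraries, and Foxa1, Foxa2 and Onecut1 are highest in CMC libraries 1 and 4.

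The 3 FOXA genes and Onecut1 varied most between livers of the same group. Foxa2 had 32.4, 15.2, 18.5, 41.5 and 14.3 FPKM across CMC libraries 1 to 5, against 24.3, 13.1, 12.3, 20.7 and 12.4 FPKM across DEHP libraries 1 to 5. CMC libraries 1 and 4 were high, followed by DEHP libraries 1 and 4, and the other 6 lay between 12.3 and 18.5 FPKM. The log2 fold change was -0.47 (SE 0.33, 95% interval -1.21 to 0.27, adjusted p = 0.423). Foxa3 had 63.6, 58.9, 27.9, 61.1 and 37.4 FPKM in CMC and 28.6, 41.6, 33.9, 35.7 and 33.9 FPKM in DEHP libraries. CMC libraries 1, 2 and 4 were above all DEHP libraries, and CMC library 3 was the lowest of the 10. The log2 fold change of Foxa3 was -0.45 (SE 0.22, 95% interval -0.93 to 0.02, adjusted p = 0.217), and without CMC library 3 it was -0.64 and was called (adjusted p = 0.0192). Foxa1 had 9.62, 3.36, 5.33, 9.78 and 5.36 FPKM in CMC and 6.73, 5.24, 5.21, 7.63 and 4.06 FPKM in DEHP libraries, with a log2 fold change of -0.13 (SE 0.26, 95% interval -0.70 to 0.44, adjusted p = 0.820). Foxa1 overlaps Ttc6, which the table also lists.

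Onecut1, which encodes HNF6, had 4.3, 0.64, 0.55, 5.17 and 1.05 FPKM in CMC and 2.49, 1.25, 0.32, 1.45 and 1.17 FPKM in DEHP libraries. Its highest value was 16.2 times its lowest. The log2 fold change was -0.37 (SE 0.55, 95% interval -1.59 to 0.85, adjusted p = 0.739), an interval too wide to tell a fall from a rise. The spread of Onecut1 within groups was larger than that of 99.3% of tested genes, and that of Foxa2, Foxa1 and Foxa3 larger than that of 96.4%, 93.3% and 87.4%. Hnf4a and Nr5a2 were steadier, with a spread larger than that of 15.2% and 20.5% of tested genes.

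CMC libraries 1 and 4 were the 2 highest of the 10 for 4 members, Foxa1, Foxa2, Foxa3 and Onecut1. The same was true of 165 tested genes, or 1.47%. Among the DEHP libraries, numbers 1 and 4 were the 2 highest for 3 of them, Foxa1, Foxa2 and Onecut1, as for 7.89% of tested genes, and both held together for 18 tested genes, or 0.16%. These patterns were noticed in the data and were not tested. The labels give no link between libraries of the same number. By the root mean square difference of z-scored log2 values over the 10 libraries, where 0 would be an identical pattern, the gene nearest to Foxa2 was Cish (0.253), a cytokine-induced inhibitor of STAT signalling. Cish had 11.3, 1.22, 1.79, 16.1 and 0.66 FPKM in CMC and 8.28, 1.15, 1.18, 3.45 and 0.89 FPKM in DEHP libraries, high in the same 4 libraries as Foxa2. Cish was also the second nearest to Onecut1 (0.470), after Trib1 (0.469). The nearest member to Foxa1 was Foxa2 (0.506), and Foxa2 and Onecut1 were each other's nearest members (0.484). Phlda1 was nearest to Foxa1 (0.470) and Rrs1 to Foxa3 (0.366). The genes nearest to Cebpb were Galnt10 (0.240) and Rhog (0.247), and those nearest to Hnf4a, Cebpa, Nr1h4 and Nr5a2 were Taf7 (0.351), Pex26 (0.336), Nat8f2 (0.364) and Suco (0.389), each over 10 libraries. The clock component, the first principal component of 16 circadian genes, was -1.47 ± 3.11 in CMC and 1.47 ± 1.93 in DEHP libraries (two-sided exact permutation p = 0.103). The component was -3.93, -2.60, -4.38, 0.849 and 2.72 across CMC libraries 1 to 5. The part of clock time in these levels was not tested.

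**Figure D3:**
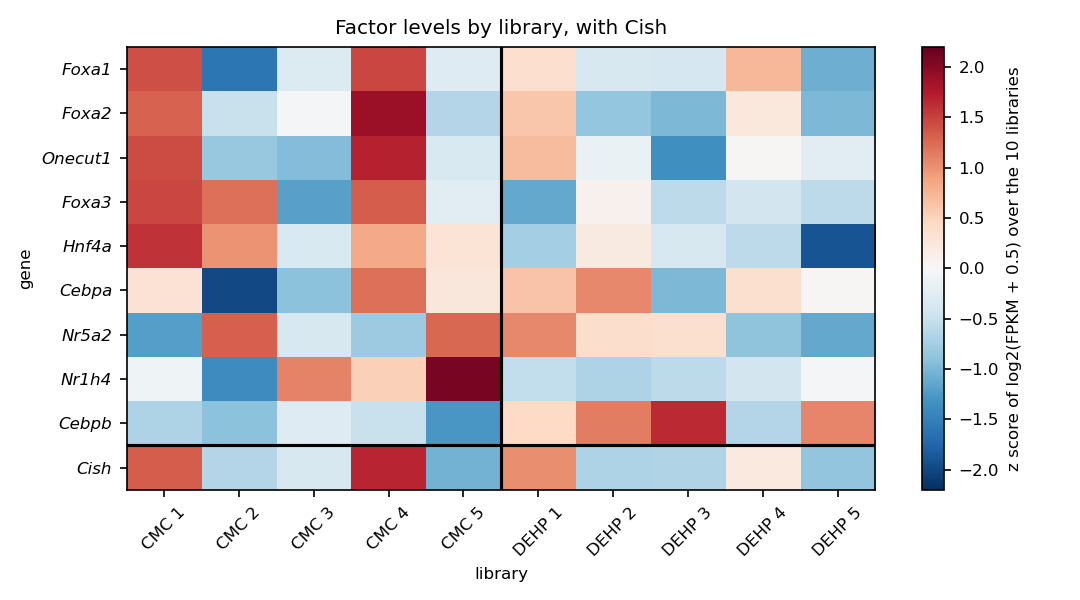
Colour gives the z score of log2(FPKM + 0.5) over the 10 libraries (x axis) for the 9 factors and for Cish below the line (y axis), with CMC libraries left of the black line and DEHP libraries right of it. Foxa1, Foxa2, Onecut1, Foxa3 and Cish are reddest in CMC libraries 1 and 4, and Cebpb in DEHP library 3.

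The promoters of Foxa1, Foxa2, Onecut1 and Hnf4a are shown to set the genes with the shared library pattern beside one another and beside the steadier Hnf4a. Each is the 250 bases before a RefSeq start (GRCm38.p6), and the capitals mark AATCAATA of HNF6 in Hnf4a and Foxa2, TGTTTAC of FOXA in Foxa1 and TGACG in Onecut1, each on either strand.
Foxa1, chr12:57546112-57546361 (- strand): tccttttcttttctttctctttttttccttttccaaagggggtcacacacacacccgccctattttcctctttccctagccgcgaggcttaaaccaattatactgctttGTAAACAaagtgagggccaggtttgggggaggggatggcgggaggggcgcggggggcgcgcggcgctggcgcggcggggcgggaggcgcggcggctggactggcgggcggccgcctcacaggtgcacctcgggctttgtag
Foxa2, most upstream start, chr2:148046970-148047219 (- strand): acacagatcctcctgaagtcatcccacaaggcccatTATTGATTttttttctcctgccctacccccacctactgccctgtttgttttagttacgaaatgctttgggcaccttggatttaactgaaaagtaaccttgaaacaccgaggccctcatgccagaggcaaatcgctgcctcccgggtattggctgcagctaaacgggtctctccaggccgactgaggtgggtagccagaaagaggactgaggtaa
Onecut1, chr9:74861671-74861920 (+ strand): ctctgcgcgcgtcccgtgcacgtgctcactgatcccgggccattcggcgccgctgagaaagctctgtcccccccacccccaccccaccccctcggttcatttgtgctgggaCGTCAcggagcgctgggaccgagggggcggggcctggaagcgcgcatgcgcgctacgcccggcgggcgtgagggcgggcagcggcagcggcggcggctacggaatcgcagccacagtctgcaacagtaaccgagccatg
Hnf4a, upstream start, chr2:163506607-163506856 (+ strand): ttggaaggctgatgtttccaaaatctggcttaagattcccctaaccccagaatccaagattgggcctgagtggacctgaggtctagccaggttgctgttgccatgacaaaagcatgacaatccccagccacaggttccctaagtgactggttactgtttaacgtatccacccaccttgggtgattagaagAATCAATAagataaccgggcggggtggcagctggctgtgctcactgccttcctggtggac
AATCAATA was found before 2 of the 9 members, Hnf4a and Foxa2, 60 and 214 bases before the start, and before 0.61% of tested genes. Hnf4a and Foxa2 have several RefSeq starts, and a match before any start was counted. TATAAA was found before 4 of the 9 (8.19% of tested genes) and TGACG before 2 (30.7%). TTGCNNAA and TGTTTAC were found before 1 each (9.64% and 2.81%), and the other motifs searched before none. TGTTTAC was found 141 bases before the start of Foxa1, and no motif searched was shared by Foxa1, Foxa2 and Onecut1 in the windows printed.

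Neither Nr1h4 nor Nr5a2 passed the test. Nr1h4, the gene of the bile acid sensor FXR, had 40.6, 34.6, 47, 43.8 and 53.2 FPKM in CMC and 38.4, 37.8, 38.2, 39.1 and 40.9 FPKM in DEHP libraries. The DEHP values lay close together inside the CMC range, with a coefficient of variation of 3.16% against 15.8% in CMC. The log2 fold change was -0.16 (SE 0.10, 95% interval -0.37 to 0.06, adjusted p = 0.356). Nr5a2, the gene of LRH-1, which drives bile acid and cholesterol genes, had 8.27, 10.6, 9.02, 8.62 and 10.6 FPKM in CMC and 10.4, 9.7, 9.67, 8.54 and 8.34 FPKM in DEHP libraries. Its log2 fold change was -0.012 (SE 0.11, 95% interval -0.24 to 0.21, adjusted p = 0.963).

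On the FPKM scale, which is per length, the members kept nearly the same order of level in both groups. In CMC livers it ran Cebpa, Hnf4a, Cebpb, Foxa3, Nr1h4, Foxa2, Nr5a2, Foxa1 and Onecut1, from means of 185 down to 2.34 FPKM. Ranges of neighbours did not overlap between Cebpb and Foxa3 and between Foxa2 and Nr5a2, and overlapped elsewhere. In DEHP livers it ran Cebpb, Cebpa, Hnf4a, Nr1h4, Foxa3, Foxa2, Nr5a2, Foxa1 and Onecut1, from 197 down to 1.34 FPKM. The ranges of Cebpb and Cebpa overlapped, as did those of Nr1h4 and Foxa3, and no other neighbours did. Hnf4a had more FPKM than Cebpb in 4 of 5 CMC libraries, while in DEHP libraries every Cebpa value was above every Hnf4a value.

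The ratio of Alb to each factor within a library does not depend on a scaling factor of the library, and it asks whether the albumin transcript differed more than the factor's. The log2 ratio to Cebpb was 7.93 ± 0.201 in CMC and 6.78 ± 0.239 in DEHP livers (SD over 5 libraries each), a difference of -1.15 (two-sided exact permutation p = 0.00794, the smallest it can give, 0.0238 adjusted over the 9 factors). The ratio to Cebpa differed by -0.74 and that to Nr5a2 by -0.62, with the same p and adjusted p for each. In the ratios to these 3 factors every DEHP library was below every CMC library. Alb alone was already lower in every DEHP library, and Cebpb was the member called higher. These ratios are therefore no independent support for either call. The ratio to Nr1h4 differed by -0.48 (exact p = 0.0397, adjusted 0.0714) and that to Hnf4a by -0.40 (exact p = 0.0238, adjusted 0.0536), neither past the threshold. The differences were -0.50 for Foxa1, -0.18 for Foxa3, -0.15 for Foxa2 and -0.18 for Onecut1, with exact permutation p of 0.230, 0.484, 0.643 and 0.817. The 9 ratios share Alb, and a p that misses the threshold does not show that Alb and the factor moved alike. With 5 libraries per group, a correlation between factor and secretory levels within a group was not computed, and across both groups it would follow the treatment.

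**Figure D4:**
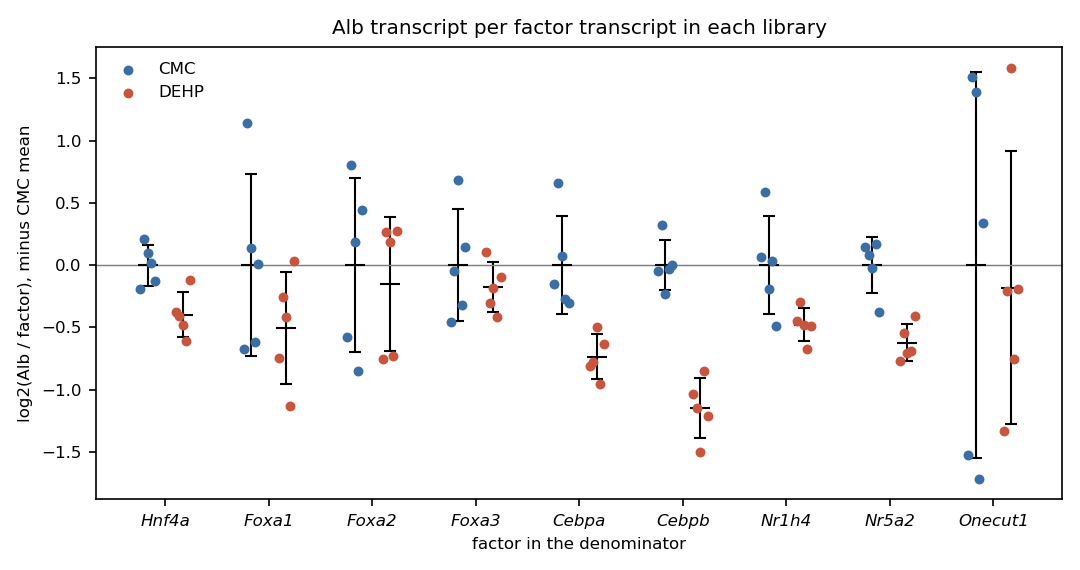
Log2 ratio of Alb to factor FPKM in each library, minus the CMC mean of that ratio (y axis), for each factor (x axis), with the mean and 1 SD in black (n = 5 per group). The DEHP points lie below all CMC points for Cebpa, Cebpb and Nr5a2, and the groups overlap for the other 6.

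Among 32 other liver factors, 2 were called higher and 3 lower, where 9.12% of all tested genes were called higher and 2.4% lower. Their median log2 fold change was 0.05, close to that of all tested genes. Atf5, a leucine zipper factor abundant in liver, had 228, 272, 217, 201 and 198 FPKM in CMC and 151, 124, 167, 145 and 154 FPKM in DEHP libraries. All DEHP libraries were below all CMC libraries (-0.59 in log2, SE 0.10, adjusted p = 0.00178), and the call held under all 11 other settings of the fit and without each library. Xbp1, a factor of the secretory stress response, fell from 80.4 ± 9.11 to 62.8 ± 8.62 FPKM (-0.36 in log2, SE 0.11, adjusted p = 0.0423), and Foxo1, a target of insulin signalling, from 9.25 ± 1.22 to 6.89 ± 1.12 FPKM (-0.40, SE 0.12, adjusted p = 0.0485). Esrra, a receptor of mitochondrial gene programmes, rose by 0.31 (adjusted p = 0.0380, SE 0.09) and Rxrb, a partner of many nuclear receptors, by 0.35 (adjusted p = 0.0416, SE 0.10). These 4 calls were close to the threshold: without single libraries Xbp1 stayed called in 3 of 10 refits (adjusted p 0.0266 to 0.106), Foxo1 in 2 (0.0312 to 0.114), Esrra in 3 (0.0300 to 0.0887) and Rxrb in 2 (0.0151 to 0.102). Esrra and Rxrb were also lost with each of the 3 other scalings, by median of ratios, by quantiles and after removal of the 10 most abundant genes. Cebpg, which pairs with other C/EBP proteins, had a log2 fold change of -0.37 (adjusted p = 0.0684), and was called with median-of-ratios (adjusted p = 0.0227) and quantile scaling (0.0208) and without CMC library 1 (0.0434). Of 16 cofactors only Hdac3, a histone deacetylase of repressor complexes, was called (higher, 0.37, SE 0.10, adjusted p = 0.0234), against 11.5% of all tested genes. That call was lost with median-of-ratios and quantile scaling, with the clock component as a covariate, and without DEHP library 1 or 3 (highest adjusted p = 0.0992 and 0.0688).

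Genes that textbooks place under these factors did not move one way. Of 14 tested targets of FXR and LRH-1, 4 were called higher and none lower by limma, with 10 not called and a median log2 fold change of 0.35. Over all tested genes 9.12% were called higher and 2.4% lower, shares that also stand beside the other target counts below. The counts do not separate genes that a factor raises from genes that it lowers. Pltp, which transfers phospholipids between lipoproteins, had 16, 17.1, 17.3, 20.3 and 19.9 FPKM in CMC and 203, 82, 264, 116 and 205 FPKM in DEHP libraries (3.11 in log2, SE 0.29, adjusted p = 0.000141). Every DEHP library was far above the CMC range. Cyp8b1, the sterol hydroxylase of cholic acid synthesis, rose from 238 ± 42.5 to 406 ± 69.6 FPKM (0.77, SE 0.14, adjusted p = 0.00315), and it stands in the HNF4A list as its 1 higher call. The sterol export pair rose as well, Abcg8 by 0.68 (adjusted p = 0.00398, SE 0.13) and Abcg5 by 0.60 (adjusted p = 0.0320, SE 0.16), the latter called in 3 of 10 refits without a library (adjusted p 0.000518 to 0.0798) and in 5 of 11 other settings of the fit (highest adjusted p = 0.0878). Nr0b2, the repressor SHP induced by FXR, had a log2 fold change of 0.51 (adjusted p = 0.0768, SE 0.17), which did not pass, but it was called with array weights (adjusted p = 0.0386) and without CMC library 2 (adjusted p = 0.0106).

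Of 13 HNF4A targets 1 was called higher and 3 lower, among the latter Apom and Apoc3, an inhibitor of lipoprotein lipase, which fell by 0.33 (adjusted p = 0.0285, SE 0.09) but by 0.082 with quantile normalization (adjusted p = 0.768), and which stayed called in 5 of 10 refits without a library. F7, a clotting protease, fell from 61.9 ± 5.18 to 48.6 ± 2.65 FPKM (-0.34 in log2, SE 0.08, adjusted p = 0.00917). Of 9 C/EBP targets 2 were lower, Alb and Igf1, the liver-made growth factor, which fell by 0.52 (adjusted p = 0.00089, SE 0.08). Of 8 targets of FOXA and HNF6 only Alb was lower, so the lists share genes and do not count separately.

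C/EBP beta is a known activator of acute phase genes, and 1 of 16 such genes was called, against 11.5% of all tested genes. It was Crp, the pentraxin C-reactive protein, which fell from 271 ± 16.4 to 217 ± 9.6 FPKM (-0.32 in log2, SE 0.07, adjusted p = 0.00713). Hp, the haemoglobin binder haptoglobin, had a log2 fold change of 0.35 (adjusted p = 0.0624), Orm2 1.54 (adjusted p = 0.0903, SE 0.50) and Saa3 -0.85 (adjusted p = 0.0640, SE 0.27), none past the threshold in the main comparison. Each was called under some other settings, Hp with quantile scaling (adjusted p = 0.0405), array weights (0.0489) and without CMC library 2 (0.0436) or 5 (0.0224). Orm2 was called with plain limma, without trend and robust variance (adjusted p = 0.0482), and without CMC library 5 (0.0275), and Saa3 with array weights (0.0109) and without DEHP library 5 (0.00164). Of 10 genes of fetal liver and progenitors 6 were tested, and 2 were called higher, where 9.12% of all tested genes were. H19, Gpc3, Igf2 and Dlk1 did not reach the filter on low values. Krt23, a keratin, had 0.36, 1.14, 1.59, 0.73 and 0.1 FPKM in CMC and 13.6, 16.1, 8.38, 10.9 and 10.6 FPKM in DEHP libraries (3.38 in log2, SE 0.30, adjusted p = 2.8e-05), with no overlap. Ly6d, a surface antigen, had 0.69, 0.24, 0, 0.47 and 1.48 FPKM in CMC and 6.1, 5.64, 7.96, 6.63 and 32.1 FPKM in DEHP libraries (3.30, SE 0.51, adjusted p = 0.00277). Afp, the fetal counterpart of albumin, stayed below 1 FPKM in every library and had a log2 fold change of 0.38 (adjusted p = 0.295, SE 0.22).

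Markers of other liver cells were compared in the same libraries. By limma, none of the tested markers of cholangiocytes (3), Kupffer cells and macrophages (10), endothelium (8), stellate cells (8) or lymphocytes and neutrophils (4) was called. Over all tested genes 11.5% were called. The log2 fold change was negative for 1 Kupffer and macrophage marker (median 0.18), and 1 marker of that list was higher without overlap. Negative were also 5 endothelial (median -0.045), 5 stellate (-0.15), 2 cholangiocyte (-0.067) and all 4 lymphocyte and neutrophil markers (-0.12). Of all tested genes 40.5% were negative. Summed FPKM of the Kupffer and macrophage markers ran from 152 to 217 in CMC and from 187 to 231 in DEHP libraries, of the endothelial markers from 80.2 to 107 and from 73.4 to 112, and of the stellate markers from 56.1 to 74.1 and from 42.2 to 66.8. No marker found in the table was at 0 in every library, but Krt7, Epcam and Cftr of cholangiocytes and Cd3e, Cd79a, Ms4a1 and Retnlg of lymphocytes and neutrophils did not enter the test. For cholangiocytes these sums ran from 20.7 to 28.4 and from 17.4 to 27.4, and for lymphocytes and neutrophils from 4.58 to 9.42 and from 4.81 to 8.95. Summed FPKM of the 8 hepatocyte markers, Alb among them, ran from 51276 to 64680 in CMC and from 38512 to 44765 in DEHP libraries. Of these 8, 1 was called higher and 2 lower. The higher one was Cyp2e1, an alcohol-metabolising cytochrome, from a mean of 3281 to 4807 FPKM (0.57 in log2, SE 0.13, adjusted p = 0.0113), whose call was lost with median-of-ratios scaling and with the clock component (highest adjusted p = 0.0881). The lower ones were Alb and the lipoprotein gene Apoa1 (-0.37 in log2, SE 0.07, adjusted p = 0.0035), the latter lost with quantile scaling (adjusted p = 0.130). The part of cell composition in the factor levels was not tested. Pparg, the gene targeted in all 10 livers, had 2.4, 4.56, 4.14, 2.72 and 5.9 FPKM in CMC and 7.81, 5.5, 9.4, 7.79 and 7.04 FPKM in DEHP libraries (0.89 in log2, SE 0.21, adjusted p = 0.0118). That call was lost with the clock component as a covariate (adjusted p = 0.0589), and since the deleted part is not given, the level checks nothing about the knockout.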

How the data were processed

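Per the labels' protocols, total RNA of frozen livers was made into libraries with an Illumina TruSeq kit. Per the file headers, the deposited values are FPKM, 1 per gene and library. Per the submitters' processing notes, Cuffdiff and the builds mm10 and GRCm38 were used, with no version. Which aligner was used is not given in those sources. FPKM is relative to the library total, no counts were used, and total depth is unknown, so no counting interval is given.

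Tested were genes reaching 0.5 FPKM in 5 or more libraries as log2(FPKM + 0.5), which understates changes of low genes, with limma 3.58.1 in R 4.3.3 (trend, robust variance) and Benjamini-Hochberg adjustment. On simulated data for this comparison with 11242 genes, recovery was 48.67% for log2 changes of 0.5, 85.67% for those of 1 and 99.33% for those of 2, with 5.134% of calls false. The simulation changed 200 genes, where 1295 were called in the data, and drew independent normal noise for each gene. It held no shared library pattern and no scaling difference, so the rates in the data may differ. Single values were tested by exact permutation, two-sided, over all regroupings of the libraries. Levels are means ± SD.

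The members and lists were chosen with earlier results of these data known. Named are the members, Alb, Pparg, up to 6 genes per list by smallest p and, for each member, the 2 genes nearest in pattern, some of which are not reported here. Other settings were a pseudocount of 0.1 or 1, the filter dropped or raised to 2 FPKM, median-of-ratios and quantile scaling, removal of the 10 most abundant genes, plain limma, array weights, the replicate block, the clock component as a covariate, an exact test and leaving out each library. Coordinates and promoters are RefSeq's (GRCm38.p6), matched by gene ID.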

Additional observations from a re-analysis of the deposited data

Results flagged for a closer look

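In 122 groups of 5 libraries checked among the named genes, 6 held a library far from the other 4, by a gap above 0.71 of the group's range. Chance alone would flag about 1 in 20 groups. No member was among them. Foxo1 was 11.36 FPKM in CMC library 2, with the others at 8.3 to 9.15 FPKM. Abcg5 was 49.5 FPKM in CMC library 2, with the others at 23.43 to 30.53 FPKM. F7 was 71.02 FPKM in CMC library 5, with the others at 58.35 to 60.78 FPKM. Orm2 was 158.68 FPKM in DEHP library 5, with the others at 41.37 to 65.06 FPKM, and Ly6d was 32.12 FPKM there, with the others at 5.64 to 7.96 FPKM. Cyp2e1 was 2230.66 FPKM in CMC library 2, with the others at 3409.01 to 3804.87 FPKM.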

How the results depend on the processing

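The number of members called was 2 with median-of-ratios scaling (Hnf4a beside Cebpb) and 2 with the replicate block (Foxa2 beside Cebpb, adjusted p = 0.0378). Over all tested genes the same-numbered libraries did not deviate together (correlations -0.0722 to 0.0489). A link that touched few genes would not show in these correlations, and the labels give no pairing. Without each library in turn the number of members called was 0 to 2. Over all tested genes, 648 were higher and 171 lower with the clock component as a covariate, and 747 to 1011 higher and 202 to 263 lower without a library; 635 and 453 with median-of-ratios and 611 and 546 with quantile scaling. Secretory genes called lower kept within 1.5 times of 48 under every setting of the limma fit that was run (40 to 50 without a library). Secretory genes called higher numbered 0 with median-of-ratios, without the 10 most abundant genes and with the clock component, 1 with quantile scaling, plain limma and the replicate block, and 1 to 4 without a library. Other liver factors called higher numbered 0 with median-of-ratios, quantile scaling, without the 10 most abundant genes, with plain limma and with the replicate block, 1 with no filter and with the clock component, and 0 to 4 without a library. Those called lower numbered 1 with no filter and with plain limma, 5 with quantile scaling, and 1 to 3 without a library.

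Direction turned, with no call, for Cebpa with quantile scaling (-0.063) and the clock component (-0.056) and for Nr5a2 with array weights (0.034). Without each library in turn the log2 fold change ran from -0.33 to 0.025 for Foxa1 (positive without CMC library 1, 0.019, and without CMC library 4), from -0.00086 to 0.18 for Cebpa (negative without CMC library 2), and from -0.055 to 0.031 for Nr5a2 (positive without CMC libraries 2, 5 and without DEHP libraries 4, 5). It ran from -0.64 to -0.028 for Onecut1 (without CMC libraries 3 and 4), from -0.63 to -0.25 for Foxa2 (without CMC libraries 5 and 4) and from -0.24 to -0.086 for Nr1h4 (without CMC libraries 2 and 5), with no call. The replicate block also called Hp (adjusted p = 0.0374), Orm2 (0.00162) and Saa3 (0.0266). With the replicate block, as sign flips within numbers, whose smallest p over 32 flips is 0.0625, the differences in the Alb ratio of -0.74 for Cebpa, -1.15 for Cebpb and -0.62 for Nr5a2 had an adjusted p of 0.1875 (exact). Without a library the Alb ratio differences ran from -0.37 to 0.049 for Foxa2 (positive without CMC library 2), from -0.62 to 0.20 for Onecut1 (0.20 and 0.17 without CMC libraries 2 and 3, 0.11 without DEHP library 1), from -0.67 to -0.22 for Foxa1 (without CMC libraries 1 and 2), from -0.29 to -0.0071 for Foxa3 (without CMC libraries 1 and 3), from -0.47 to -0.35 for Hnf4a and from -0.60 to -0.33 for Nr1h4. Hnf4a passed without CMC library 5 (-0.43) or DEHP library 5 (-0.47), and Nr1h4 without CMC library 5 (-0.60). The causes were not tested. Total depth is unknown, and Onecut1, at under 2 FPKM in 7 libraries, is the least precise member.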
